A study of Mus musculus with 9 samples.

Results

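Aminoacyl-tRNA synthetases are the enzymes that attach each amino acid to its transfer RNA. The set described here holds 35 mouse genes, 19 for cytosolic enzymes and 16 for mitochondrial ones, chosen by gene symbol from a given list. They were picked out of 52661 gene rows by the Ensembl identifier of each symbol, and all 35 passed the filter on low counts that left 18408 genes for testing. The mitochondrial members are those whose symbol ends in 2. Mars belongs to the same family but is not on the list and was treated as a related gene.

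The series profiled gene expression by RNA sequencing in mouse embryonic fibroblasts of strain C57BL/6, all immortalised with T/t antigen and all propagated in DMEM with N2 supplement, EGF and FGF-2. Wild-type cells were set beside cells of genotype Ctr1 -/-, whose sample titles name a floxed Ctr1 allele, and beside Ctr1 -/- cells given the copper chelator bathocuproine disulfonic acid (BCS). Ctr1, the product of Slc31a1, brings copper into the cell across the plasma membrane with high affinity. The sample labels give BCS at 500 μM for 48 h and the series text gives 500 mM, and wild-type cells with BCS were not analysed here. Each of the 3 groups held 3 libraries made from total RNA, with 38962036 to 57206337 estimated counts per library. The labels do not say that replicates came from separate cultures or clones, so p-values measure only the spread between these libraries, and the genotype cannot be told apart from any other difference between the cell lines.

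Each synthetase recognises 1 amino acid and the transfer RNAs that decode it, except that of Eprs, which serves glutamate and proline. The charged transfer RNA then delivers the amino acid to the ribosome. Cytosolic and mitochondrial translation use mostly separate enzymes from separate nuclear genes, while Gars and Kars each serve both compartments through alternative products of the same gene. Several cytosolic enzymes, among them those of Dars, Eprs, Iars, Kars, Lars, Qars and Rars, sit in a multi-synthetase complex on scaffold proteins. When amino acids run short or the endoplasmic reticulum is stressed, the transcription factor ATF4 is known to raise many cytosolic synthetase genes together with genes for amino acid synthesis and import.

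ATF4 binds, with C/EBP partners, to a composite element that was searched here as TGATGNAA on both strands. RefSeq promoter windows of GRCm38.p6 ran from 250 bases before to 50 bases after a gene's start. They were used for 12 of 19 cytosolic and 14 of 16 mitochondrial members. No window was used for Cars, Hars, Lars, Nars, Rars, Vars, Wars, Hars2 and Pars2. The element was present in 5 of the 12 cytosolic windows, in 0 of the 14 mitochondrial ones and in 1304 of all 32851 windows (3.97%). The 5 windows that hold it are shown because these members are compared below with the others, and Farsa, Kars and Sars are shown as members without it. Each line runs 5′ to 3′ on the gene's strand, from 130 bases before the start through the first 20 transcribed bases, with the element in capitals.

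Aars, chr8:111033712-111033861, plus strand: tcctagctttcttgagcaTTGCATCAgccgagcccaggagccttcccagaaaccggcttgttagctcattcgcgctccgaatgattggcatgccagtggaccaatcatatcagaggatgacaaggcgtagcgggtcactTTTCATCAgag
Gars, chr6:55037871-55038020, plus strand: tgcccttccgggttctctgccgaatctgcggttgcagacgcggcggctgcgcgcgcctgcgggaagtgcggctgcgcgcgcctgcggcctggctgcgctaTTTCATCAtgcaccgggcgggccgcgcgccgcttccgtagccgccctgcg
Iars, chr13:49682000-49682149, plus strand: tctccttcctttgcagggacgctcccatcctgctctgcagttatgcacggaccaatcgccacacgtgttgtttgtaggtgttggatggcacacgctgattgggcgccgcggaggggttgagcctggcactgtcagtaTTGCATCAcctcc
Tars, chr15:11399639-11399788, minus strand: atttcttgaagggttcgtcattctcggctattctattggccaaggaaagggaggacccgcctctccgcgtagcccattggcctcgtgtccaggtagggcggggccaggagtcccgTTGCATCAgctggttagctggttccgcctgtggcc
Yars, chr4:129189773-129189922, plus strand: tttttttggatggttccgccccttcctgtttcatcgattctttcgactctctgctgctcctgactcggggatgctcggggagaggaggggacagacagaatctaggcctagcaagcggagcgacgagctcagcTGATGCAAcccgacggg
Farsa, chr8:84856856-84857005, plus strand: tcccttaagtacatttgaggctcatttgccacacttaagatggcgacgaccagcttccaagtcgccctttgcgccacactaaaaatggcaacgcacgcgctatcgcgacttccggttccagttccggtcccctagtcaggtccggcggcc
Kars, chr8:112011335-112011484, minus strand: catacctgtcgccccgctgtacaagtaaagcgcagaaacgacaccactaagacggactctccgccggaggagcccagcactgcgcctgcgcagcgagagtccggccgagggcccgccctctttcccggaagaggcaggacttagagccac
Sars, chr3:108445240-108445389, minus strand: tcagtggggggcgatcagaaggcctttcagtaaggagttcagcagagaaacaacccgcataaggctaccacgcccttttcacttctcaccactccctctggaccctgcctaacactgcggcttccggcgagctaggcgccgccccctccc

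Aars held 2 matches, the first starting 112 bases before the start and the second at the 10th transcribed base. In Gars the match began 30 bases and in Tars 15 bases before the start, whereas in Iars and Yars it began at the 8th and the 4th transcribed base. The letters TTGCATCA stood in Aars, Iars and Tars, TTTCATCA in Aars and Gars, and TGATGCAA in Yars. Of 28 genes with a window among 31 regulators and targets of ATF4, 7 held the element, namely Asns, Chac1, Nupr1, Pycr1, Slc7a11, Trib3 and Vldlr. The E-box CACGTG, a site of MYC and related factors that reads the same on both strands and can share 2 bases with the element, was in 4 of 12 cytosolic, 1 of 14 mitochondrial and 7.15% of all windows. A match describes the letters only and is not evidence of binding.

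The labels were checked before the members were compared. Slc31a1 stood at 56.1, 54.8 and 54.9 CPM in wild type, where CPM is the count as a share of the TMM-scaled library total, at 2.54, 3.88 and 1.40 in Ctr1-null and at 3.24, 2.54 and 1.69 with BCS. Wild type replicate 1 stood apart: on the first principal component of all genes (46.2% of the variance) it scored -2.04, against 67.1 and 63.3 for replicates 2 and 3 and -32.0 to 9.05 for Ctr1-null. Calls of members and the medians of all cytosolic members that involve wild type are therefore given with and without it, as are several single members. Most other results that involve wild type are given on all 9 libraries only. Of 12 fibroblast markers, Thy1 and Lum were under 1 CPM in all 9 libraries, and the summed level of all 12 was 15469 to 19857 CPM over the 9 libraries. Pdgfra, a receptor of fibroblasts and their precursors, had 65.3, 6.11 and 6.62 CPM in the 3 wild-type libraries, the first of them being the one that stood apart, against 36.2 to 94.97 in the other 6, and Col1a2 had 1780.0, 2249.6 and 2264 CPM in wild type and 838 to 1843 in the others. The sum of 7 fat cell markers was 24.4 to 30.3 CPM in wild type, 58.8 to 85.5 in Ctr1-null and 67.4 to 81.8 with BCS, while Adipoq, Plin1 and Cidec stayed under 1 CPM throughout. Summed neural progenitor markers (6 genes, Olig2 and Sox1 at or near 0) were 155 to 244, 171 to 201 and 119 to 145 CPM in the same order. Epithelial markers (5 genes, Epcam under 1 CPM) summed to 2.29 to 9.76, 1.09 to 3.93 and 2.12 to 2.37 CPM, and macrophage and blood markers (5 genes, Adgre1 at 0) to 10.7 to 18.4, 15.8 to 21.9 and 18.7 to 26.2 CPM. Endothelial markers (4 genes) summed to 27.5 to 38.0, 25.9 to 33.8 and 23.7 to 31.9 CPM. Muscle markers (5 genes, Myod1 at 0) summed to 0.622 to 1.081, 1.55 to 4.32 and 3.37 to 8.62 CPM. Markers under 1 CPM in all libraries of a group numbered, in the same order, 3, 3 and 3 for fibroblast and 4, 3 and 3 for neural progenitor genes. They numbered 4, 4 and 4 for epithelial, 3, 2 and 2 for macrophage and blood, 2, 2 and 1 for endothelial and 4, 4 and 4 for muscle genes. With BCS against wild type the fat cell genes Pparg, Cebpa and Fabp4, the muscle gene Des, the neural gene Fabp7 and the fibroblast gene Postn rose by edgeR, by 1.24 to 2.81 on the log2 scale, and of all these markers Pparg alone was called in Ctr1-null against wild type. The part of these marker differences in the results below was not tested, and in bulk RNA fewer cells of a type and less RNA per cell cannot be told apart.

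Transcripts of cytosolic synthetases were more abundant than those of mitochondrial ones, with 1 exception. Per kilobase of the longest coding transcript, the median wild-type level was 61.3 CPM over the 19 cytosolic members, with a range from 24.9 for Cars (cysteine) to 123 for Nars (asparagine). The 16 mitochondrial members had a median of 7.76 CPM per kilobase, from 1.57 for Nars2 to 670 for Lars2. Apart from Lars2, the leucine enzyme of mitochondria, each mitochondrial member lay below each cytosolic one. The highest of them were Iars2 (isoleucine) at 18.7 ± 0.73 and Tars2 (threonine) at 18.1 ± 1.34 CPM per kilobase (SD, n = 3), which differ by less than their spread. Cars, the lowest cytosolic member, was at 24.9 ± 0.56 CPM per kilobase.

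**Figure D1:**
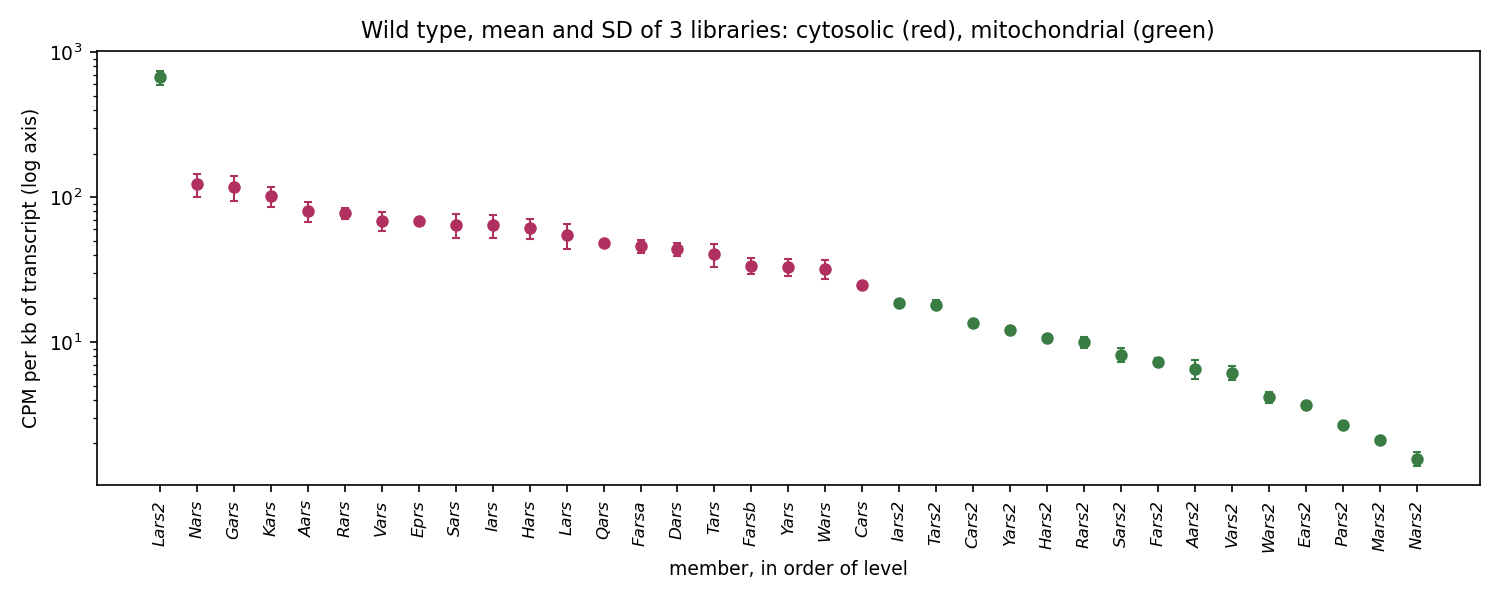
Level of each of the 35 members in wild type, in CPM per kilobase of the longest coding transcript on a log axis, ordered from highest to lowest. Points are means and bars the SD of 3 libraries, with cytosolic members in red and mitochondrial members in green; Lars2 is the 1 green point to the left of the red ones.

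The separation also held when all annotated exons of a gene were used as its length, although more narrowly. On that scale Cars was at 12.2 and Iars2 at 11.5 CPM per kilobase of exon, and Lars2 at 235. Lars2 had 2263, 2805 and 2763 CPM in wild type, 2163, 2230 and 2372 in Ctr1-null and 2480, 2180 and 2434 with BCS. The groups overlapped, and Lars2 made up 83.7% to 87.1% of all counts of the mitochondrial members in each library. No annotated transcript of another gene matched the longest coding Lars2 transcript at 90% identity over 100 bases or more. That transcript has 3894 bases, whereas all annotated exons of Lars2 cover 11089. The remaining exon sequence and sequences outside the annotation were not searched, and the source of this level was not tested.

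Neighbours in the order of cytosolic levels mostly differed by less than their spread. Nars, Gars (glycine) and Kars (lysine) led with 123 ± 22.6, 117 ± 22.5 and 101 ± 15.3 CPM per kilobase. Aars (alanine) and Rars (arginine) followed at 80.1 ± 12.6 and 77.4 ± 7.14, and Vars (valine) and Eprs (glutamate and proline) at 68.8 ± 10.7 and 68.2 ± 3.69. At the lower end Farsb, a subunit of the phenylalanine enzyme, Yars (tyrosine) and Wars (tryptophan) lay at 33.7 ± 4.16, 33.2 ± 4.56 and 31.9 ± 4.72. Farsa, the other subunit of the same enzyme, was at 45.8 ± 4.95 CPM per kilobase. Among mitochondrial members Ears2, Pars2 and Nars2 (glutamate, proline, asparagine) were the lowest in counts, with means of 7.48, 8.22 and 5.94 CPM.

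Within groups, the cytosolic members moved together from library to library. The median log2 level of the 19 members, relative to the wild-type mean of each gene, was -0.27 in wild type replicate 1 and 0.10 and 0.14 in replicates 2 and 3. It was -0.05, -0.29 and -0.41 in Ctr1-null replicates 1, 2 and 3, and -0.14, -0.15 and -0.22 with BCS. Wild type replicate 1 was the lowest wild-type library for 19 of 19 cytosolic members, and Ctr1-null replicate 1 was the highest Ctr1-null library for 19 of 19. Mitochondrial members showed less of this: wild type replicate 1 was the lowest for 9 of 16 and Ctr1-null replicate 1 the highest for 10 of 16. Their medians stayed between -0.11 and 0.02 in all 9 libraries.

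**Figure D2:**
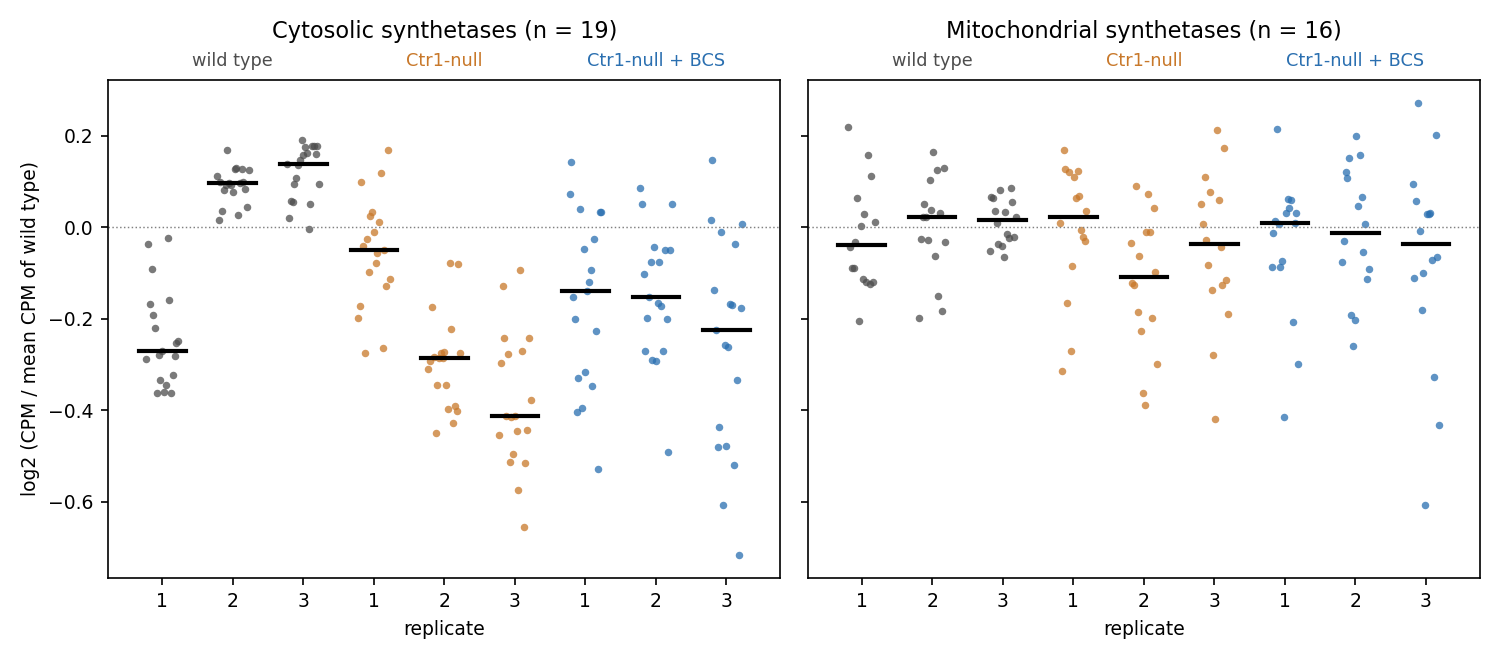
Log2 of each member's CPM over its mean in wild type, for the 9 libraries, with cytosolic members on the left and mitochondrial members on the right. Each point is 1 gene and each black bar the median of the library; in the cytosolic panel wild type replicate 1 (median -0.27) lies within the range of the Ctr1-null medians (-0.41 to -0.05).

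The first comparison set Ctr1-null cells, which lack the importer, beside wild type. No synthetase passed the test, and over all genes 2 of 18408 (0.0109%) were called at an adjusted p under 0.05 by edgeR's quasi-likelihood test. All 19 cytosolic members had a log2 fold change below 0, with a median of -0.25 and a range from -0.44 to -0.04. These members moved together from library to library, so their shared sign is not 19 separate observations. The mitochondrial members were split 8 to 8, with a median of -0.04, and over all genes tested 9080 of 18408 were below 0 and the median was 0.005. At an unadjusted p under 0.05 were 6 cytosolic members, namely Aars, Cars, Farsa, Sars, Vars and Yars, and 0 mitochondrial ones. Among all 18408 genes tested, 1568 were lower and 1671 higher at that threshold.

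The largest difference was that of Sars, the serine enzyme, with 179, 252 and 260 CPM in wild type and 192, 171 and 146 in Ctr1-null. Wild type replicate 1 lay among the Ctr1-null libraries, so the groups overlapped. The log2 fold change was -0.44 ± 0.14 (SE, edgeR adjusted p = 0.179), and without wild type replicate 1 it was -0.59 (adjusted p = 0.00674).

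Farsa, which encodes the catalytic subunit of the phenylalanine enzyme, had 73.3, 88.5 and 89.3 CPM in wild type and 69.2, 61.3 and 62.9 in Ctr1-null. All Ctr1-null libraries were below all wild-type ones, and the log2 fold change was -0.38 ± 0.10 (SE, edgeR adjusted p = 0.141). Cars had 78.2, 81.2 and 81.4 CPM in wild type and 71.2, 65.6 and 65.3 in Ctr1-null, again without overlap. Its log2 fold change was -0.25 ± 0.07 (edgeR adjusted p = 0.131). DESeq2 called both Farsa and Cars, beside 996 of 15141 genes (6.58%) with an adjusted p. Of those 996, 506 were lower.

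Groups did not overlap for 4 of 35 members, all lower in Ctr1-null: Cars, Farsa, Hars2 and Mars2. Over all genes 8.62% were lower without overlap, so this share of 4 in 35 is near the background. Hars2 (histidine) had 34.9, 36.2 and 35.9 CPM in wild type and 31.8, 31.4 and 33.7 in Ctr1-null, a log2 fold change of -0.14 ± 0.07 (edgeR adjusted p = 0.331). Its transcript overlaps that of Hars on the opposite strand over 198 bases, and whether counting used strand is not stated.

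Cytosolic and mitochondrial genes for the same amino acid formed 14 pairs over 13 amino acids, with Fars2 paired with both Farsa and Farsb. The cytosolic gene had the lower log2 fold change in 13 of these 14 pairs in Ctr1-null against wild type, with a median difference of -0.20. The exception was tryptophan, where Wars had -0.04 and Wars2 -0.08. The pairs are not separate observations either, because the cytosolic members moved together between libraries. The 7 members of the multi-synthetase complex had a median of -0.19 and the 12 cytosolic members outside it -0.30. Of the scaffold genes of the complex, Aimp1, Aimp2 and Eef1e1, all 3 were below 0 (median -0.20) and none was called, and Mars, the methionine gene outside the list, had -0.30 ± 0.11 (edgeR adjusted p = 0.208).

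Leaving out wild type replicate 1 changed the calls. Without it 10 of 19 cytosolic members fell in Ctr1-null by the same edgeR test, namely Aars, Cars, Farsa, Gars, Lars, Nars, Sars, Tars, Vars and Yars, and 1 of 16 mitochondrial members, Lars2. Over all genes, 3254 of 18835 (17.3%) were then called, 1517 of the 3254 being lower. The cytosolic median moved to -0.36 and the mitochondrial median to -0.06. Without Ctr1-null replicate 1 the cytosolic median was -0.345 and no member was called. Leaving out replicate 2 or 3 of wild type, or replicate 3 of Ctr1-null, gave a median of -0.19 and again no cytosolic call. With either replicate 3 left out, and with scaling by library size only (median -0.20), 18 of 19 cytosolic members were below 0, Wars being the exception.

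The second comparison, of treated with untreated Ctr1-null cells, addressed the effect of the chelator where the importer is already missing. No member passed the test, beside 10 of 18408 genes (0.0543%). The cytosolic members went both ways, 10 above and 9 below 0 with a median of 0.02, and the mitochondrial members were 9 above and 7 below with a median of 0.01. Aars, Cars, Sars and Yars had an unadjusted p under 0.05 with higher levels, as did Hars2, while Iars2 had one with lower levels. Among all 18408 genes tested, 1536 had one with higher and 1172 with lower levels.

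Cars was at 71.2, 65.6 and 65.3 CPM in Ctr1-null and at 88.6, 83.1 and 88.8 with BCS. All 3 BCS libraries were above all Ctr1-null ones and also above all wild-type ones. The log2 fold change was 0.37 ± 0.07 (SE, edgeR adjusted p = 0.0842). It passed with DESeq2 (617 of 14482 genes called, 4.26%, and 357 of the 617 higher). It also passed in edgeR without wild type replicate 1 (adjusted p = 0.0409). There 183 of 18835 genes were called (0.972%), and 103 of the 183 were higher.

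Aars had 402, 372 and 336 CPM in Ctr1-null and 484, 489 and 466 with BCS, where wild type had 377, 498 and 507. The BCS libraries thus lay above Ctr1-null and within the wild-type range, with a log2 difference of 0.37 ± 0.12 (SE, edgeR adjusted p = 0.209). The last 1326 bases of the longest Aars transcript are also the transcript of Exosc6 on the same strand, so reads there could be assigned to either gene. Sars had 226, 223 and 225 CPM with BCS, a log2 fold change of 0.40 ± 0.14 (adjusted p = 0.249), and the 3 BCS values differed by less than those of either other group.

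**Figure D3:**
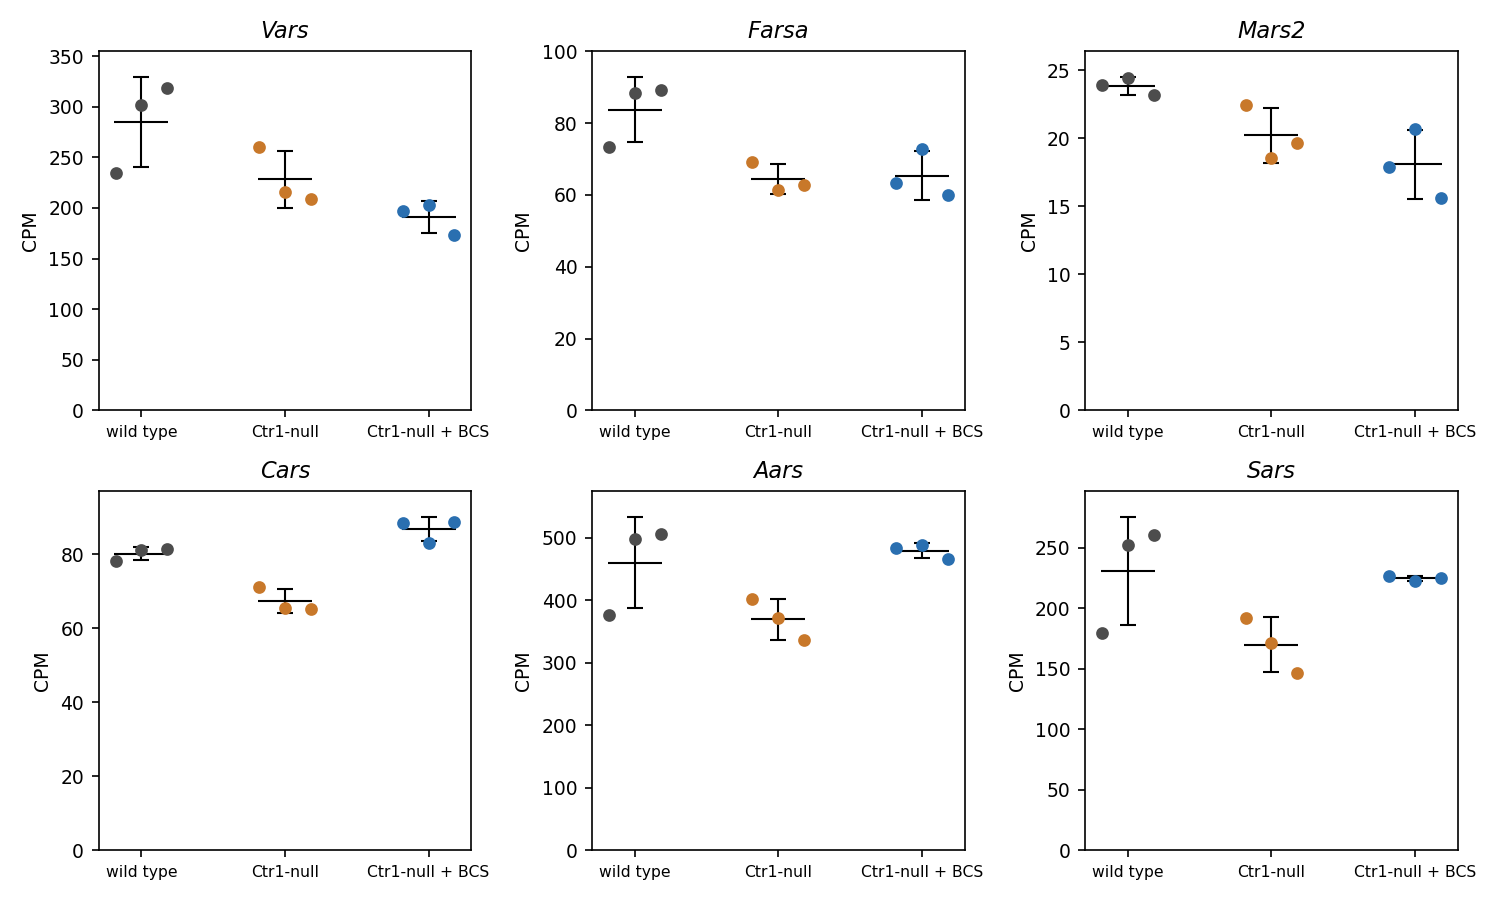
CPM of Vars, Farsa, Mars2, Cars, Aars and Sars in the 9 libraries, from 0, with points for libraries (replicates 1 to 3 from left to right) and bars for the mean and SD of 3 libraries. Vars, Farsa and Mars2 (top) were lower with BCS than in wild type in all libraries, whereas Cars, Aars and Sars (bottom) were higher with BCS than in Ctr1-null without overlap.

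Gars had 260, 228 and 195 CPM in Ctr1-null and 285, 263 and 276 with BCS, and Yars had 89.3, 79.7 and 74.3 and then 98.7, 99.99 and 97.0. Neither gene's groups overlapped, and the log2 fold changes were 0.27 ± 0.15 and 0.28 ± 0.11 (SE, edgeR adjusted p = 0.423 and 0.273). In the other direction Rars had 177, 140 and 135 CPM in Ctr1-null and 128, 135 and 114 with BCS, with -0.26 ± 0.12 on the log2 scale (adjusted p = 0.35). Vars had -0.26 ± 0.13 (adjusted p = 0.397), again with all BCS libraries below all Ctr1-null ones.

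In all, 6 of 35 members were higher with BCS without overlap, against 13.4% of all genes, and 4 of 35 were lower without overlap, against 10.9%. Both shares are near the background. The 6 were Aars, Cars, Gars, Sars, Yars and Hars2, and the 4 were Qars, Rars, Vars and Iars2. None of the 7 complex members was among the 6, and Qars and Rars of the 4 belong to the complex. These numbers are too small to set the complex apart. The complex members had a median log2 fold change of -0.07, with 2 above 0, and the 12 cytosolic members outside it 0.13, with 8 above 0. No test of this difference was made, because members are not replicates. Without Ctr1-null replicate 1 the medians were 0.02 (4 of 7 above 0) and 0.28, and without Ctr1-null replicate 3 they were -0.11 and 0.04 (6 of 12 above 0).

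The 5 cytosolic members with the ATF4 element in the promoter windows shown above (Aars, Gars, Iars, Tars, Yars) were all above 0 with BCS, with a median of 0.27 and a range from 0.05 (Tars) to 0.37 (Aars). Without Ctr1-null replicate 3 Tars was at -0.049 and Iars at -0.00039, and with the authors' factors per gene and sample Tars was at -0.052. The 7 with a window that lacked it had a median of -0.07, and 2 of them were above 0, among them Sars at 0.40. So the member with the largest value had no match in its window. In Ctr1-null against wild type the same groups had medians of -0.29 and -0.21, and with BCS against wild type -0.02 and -0.23. This split overlaps that by the complex: Iars alone of the 5 belongs to it, whereas Dars, Eprs, Kars and Qars of the 7 do. Cytosolic members without a window are in neither group, among them Cars (0.37 against Ctr1-null) and Vars (-0.26). The transcript of Iars shares 1656 bases at 96.0% identity with the pseudogene Gm4849, and Tars shares stretches of up to 200 bases with transcripts of 247 other genes, so the counts of both are less certain.

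Genes controlled by ATF4 were examined beside the synthetases. Of 31 regulators and targets, 25 were above 0 with BCS against Ctr1-null (median 0.37), and 3 rose by edgeR's quasi-likelihood test. Atf5, a factor related to ATF4, went from 46.3, 33.6 and 37.1 CPM to 89.6, 85.6 and 98.7, a log2 fold change of 1.23 ± 0.12 (SE, adjusted p = 0.0117). Ddit3, which encodes the stress factor CHOP, had 0.86 ± 0.09 (adjusted p = 0.0148), and Sesn2, a leucine sensor upstream of mTORC1, had 0.66 ± 0.07 (adjusted p = 0.0161). BCS libraries were above all others for all 3 genes.

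**Figure D4:**
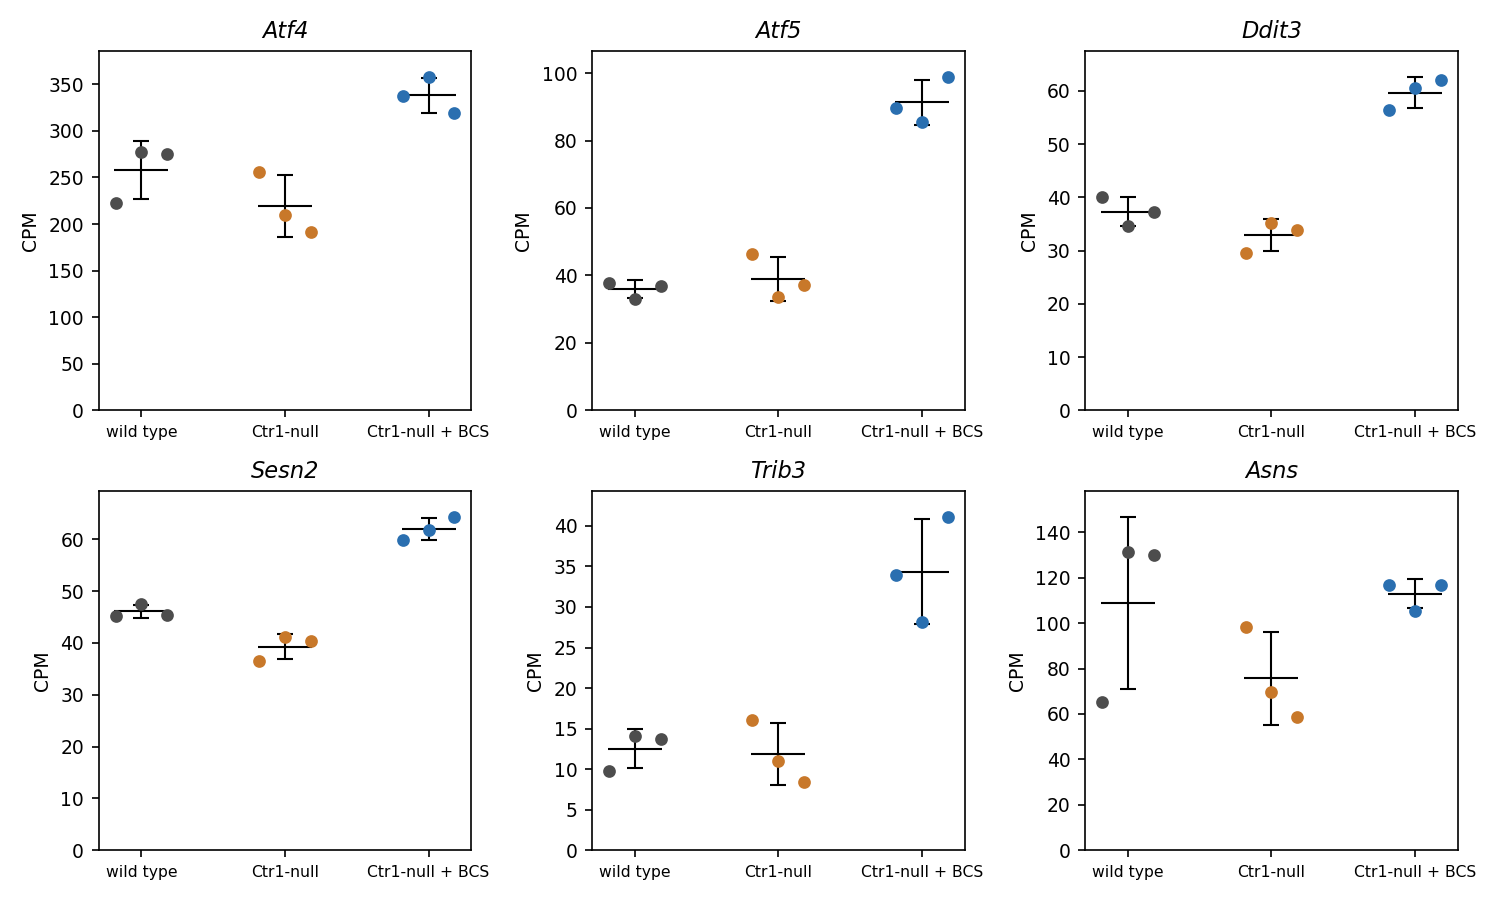
CPM of Atf4, Atf5, Ddit3, Sesn2, Trib3 and Asns in the 9 libraries, from 0, with points for libraries and bars for the mean and SD of 3 libraries. The BCS libraries lay above both other groups for the first 5 genes, whereas for Asns wild type replicates 2 and 3 (131 and 130 CPM) were the highest.

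Atf4 itself had 256, 210 and 192 CPM in Ctr1-null and 338, 357 and 319 with BCS, a log2 difference of 0.63 ± 0.12 (SE, edgeR adjusted p = 0.0924). Trib3, a target that dampens the response, had 1.54 ± 0.24 (adjusted p = 0.0834). Asns, the asparagine synthetase of amino acid synthesis and not a member, had 0.58 ± 0.26 (adjusted p = 0.341). The 3 calls were lost without Ctr1-null replicate 2 or 3 and without BCS replicate 1 or 3, with adjusted p up to 0.111, and those of Ddit3 and Sesn2 also without wild type replicate 3, Ctr1-null replicate 1 or BCS replicate 2. The log2 fold changes of the synthetases in the same comparison ran from -0.26 to 0.40.

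BCS-treated Ctr1-null cells against wild type gave the only members that passed the test on all 9 libraries with TMM scaling: Vars, Farsa and Mars2, all lower. Over all genes 2916 of 18408 (15.8%) were called and 7.28% were called lower, so 3 of 35 members lower is near the background share. Of the 19 cytosolic members 16 were below 0, with a median of -0.15, and of the 16 mitochondrial members 8 were (median -0.00, all genes 0.006). Without wild type replicate 1 the cytosolic median was -0.27 (18 of 19 below 0). It was -0.10 (13 of 19) without wild type replicate 3 and -0.05 (13 of 19) with library size only. With that scaling Vars fell (-0.47, edgeR adjusted p = 0.0217), Farsa and Mars2 did not pass, and Cars (0.21, adjusted p = 0.0352) and Fars2 (0.30, adjusted p = 0.0374) rose.

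Vars, on chromosome 17 (35000987 to 35016322, GRCm38), had 234, 302 and 318 CPM in wild type, 260, 215 and 209 in Ctr1-null and 197, 203 and 173 with BCS. All BCS libraries were below all others. The BCS mean was 67.1% of wild type, a log2 fold change of -0.58 ± 0.13 (SE, 95% interval -0.87 to -0.28, edgeR adjusted p = 0.0207). Without wild type replicate 1 it was -0.70 (adjusted p = 0.00243). The call was lost without wild type replicate 2 or 3 or BCS replicate 1 or 3 (adjusted p 0.0662 to 0.0892), and with a replicate block (0.0549).

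Farsa, on chromosome 8 (84856989 to 84869257), had 63.2, 72.9 and 60.0 CPM with BCS, just below the lowest wild-type library at 73.3. Its log2 fold change was -0.36 ± 0.10 (SE, edgeR adjusted p = 0.0456), or -0.45 without wild type replicate 1 (adjusted p = 0.00828). Farsb, its partner subunit, had -0.30 ± 0.12 (adjusted p = 0.117). The Farsa call was lost without wild type replicate 2 or 3, Ctr1-null replicate 2 or 3, or BCS replicate 1 or 3 (adjusted p 0.0624 to 0.171). Library size only, the authors' factors or only the 2 groups compared also lost it (0.0573 to 0.0840), as did a replicate block.

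Mars2, the mitochondrial methionine enzyme on chromosome 1 (55237177 to 55248470), had 23.9, 24.4 and 23.2 CPM in wild type, 22.4, 18.5 and 19.6 in Ctr1-null and 17.9, 20.7 and 15.6 with BCS. The wild-type libraries were all above the other 6. The log2 fold change with BCS against wild type was -0.40 ± 0.12 (SE, edgeR adjusted p = 0.044), and here wild type replicate 1 made no difference (-0.40, adjusted p = 0.0415). Leaving out any of the 6 libraries named for Farsa again lost the call (adjusted p 0.0593 to 0.155). So did library size only, the authors' factors, only the 2 groups compared and testing without a filter (0.0541 to 0.0980). A replicate block lost it too.

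In this comparison 10 of 35 members were lower without overlap, against 17.1% of all genes: Eprs, Farsa, Hars, Kars, Qars, Rars, Vars, Iars2, Mars2 and Yars2. Of these, 4 are complex members. All 7 complex members were below 0 (median -0.19), as were 9 of the 12 outside it (median -0.09, or 0.001 without wild type replicate 3 and 0.01 with library size only), and the 3 scaffold genes (median -0.35, none called). Kars had 184, 234 and 248 CPM in wild type, 220, 184 and 167 in Ctr1-null and 178, 181 and 159 with BCS, so the BCS libraries were below all wild-type ones, while Ctr1-null overlapped both other groups. Its log2 difference from wild type was -0.36 ± 0.13 (SE, edgeR adjusted p = 0.0921). Rars, at 146, 175 and 169 CPM in wild type, had -0.38 ± 0.12 (adjusted p = 0.0606) and Hars -0.42 ± 0.15 (adjusted p = 0.0761).

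On all 9 libraries, the cytosolic members that were higher with BCS than in Ctr1-null without overlap were near wild type. Aars had a log2 fold change of 0.06 against wild type, Sars -0.04, Yars 0.03 and Gars -0.02, and Cars had 0.11 ± 0.07 (SE, edgeR adjusted p = 0.26). This depended on wild type replicate 1. Without it the values were -0.08 for Aars, -0.20 for Sars, -0.09 for Yars, -0.17 for Gars and 0.09 for Cars. The cytosolic gene was the lower one in 10 of 14 pairs against wild type (median difference -0.06) and in 7 of 14 against Ctr1-null (-0.01). All 3 comparisons share groups of libraries, so their values are not independent.

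**Figure D5:**
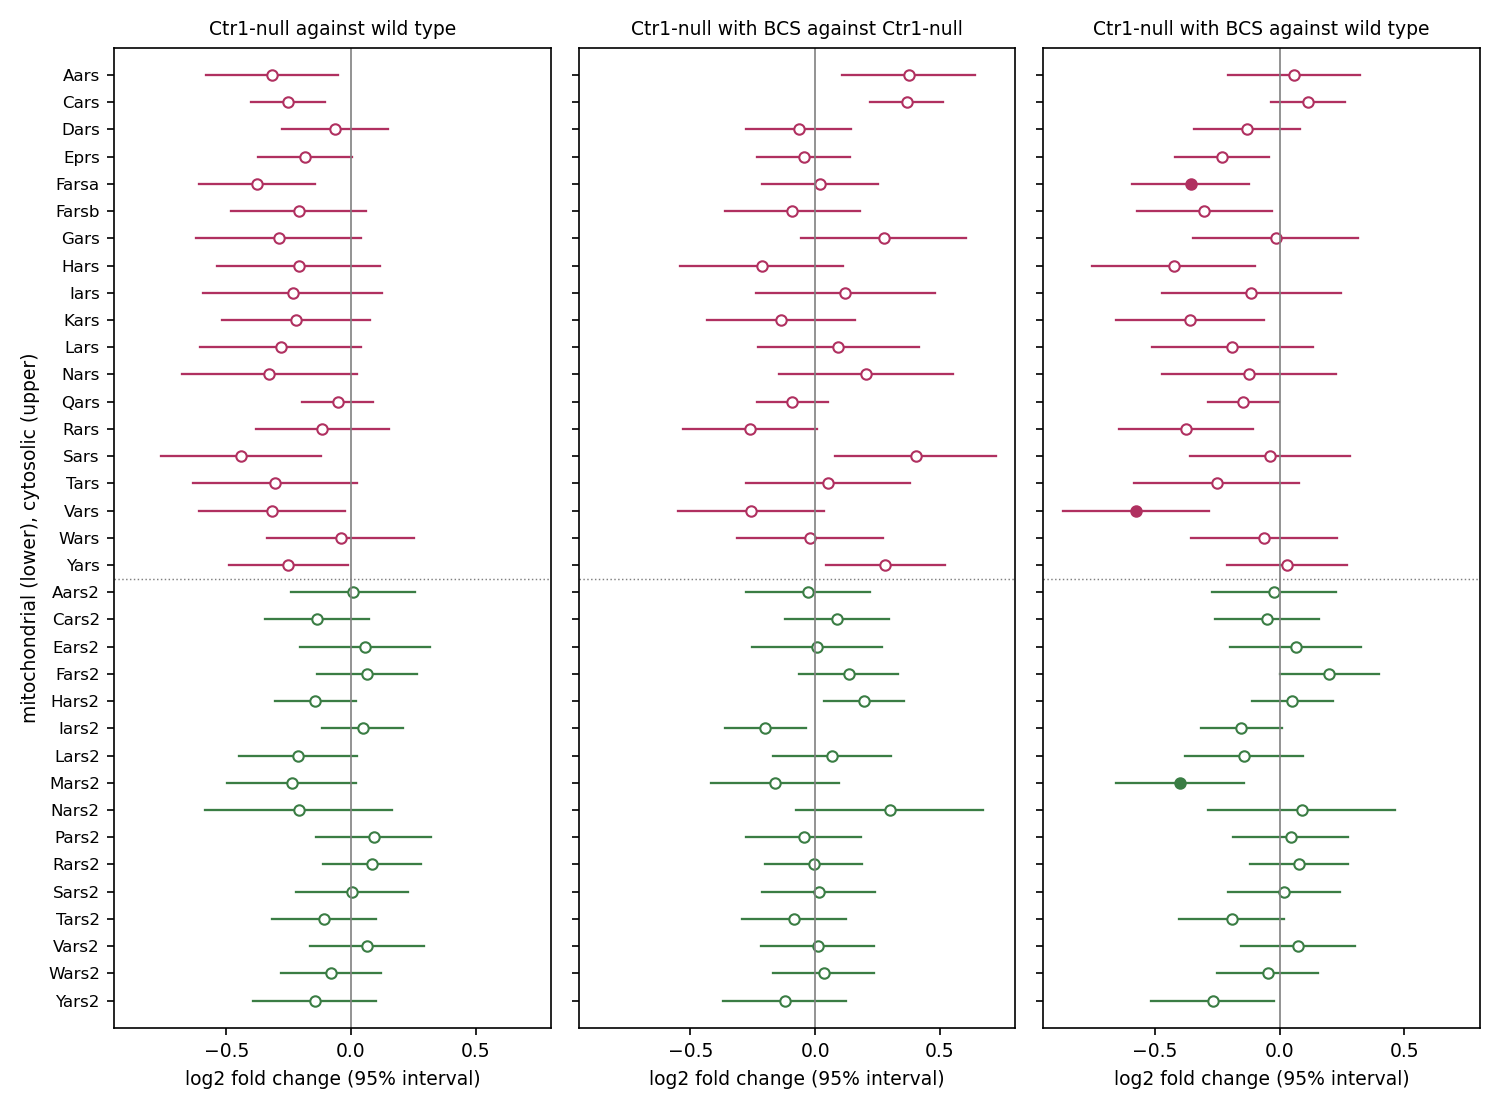
Log2 fold change of each member with its 95% interval in the 3 comparisons, cytosolic members in red above the dotted line and mitochondrial members in green below it. Filled points passed the edgeR test at an adjusted p under 0.05, which only Farsa, Vars and Mars2 did, in BCS-treated Ctr1-null cells against wild type. In the first panel all 19 cytosolic points lie below 0, but these genes moved together between libraries and are not separate observations.

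Without wild type replicate 1, 9 of 19 cytosolic members were lower with BCS than in wild type by edgeR (Eprs, Farsa, Farsb, Hars, Kars, Lars, Rars, Tars and Vars), and of the mitochondrial members Mars2 was. Over all genes 5840 of 18835 (31.0%) were then called, 2876 of the 5840 being lower. The members called in this way differ in part from those called in Ctr1-null alone: Aars, Cars, Gars, Nars, Sars and Yars were on the earlier list and not on this one. DESeq2 on all libraries called 5 cytosolic members lower (Eprs, Farsa, Hars, Rars, Vars), beside 3955 of 19090 genes (20.7%). Of those 3955, 2031 were lower.

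The mitochondrial members other than Mars2 showed small differences. Fars2 (phenylalanine) had 14.7, 16.2 and 15.99 CPM in wild type and 18.1, 16.8 and 18.8 with BCS, a log2 difference of 0.20 ± 0.09 (SE, edgeR adjusted p = 0.151). Iars2 had 107, 100 and 99.5 CPM in wild type, 111, 97.7 and 108 in Ctr1-null and 96.1, 89.3 and 90.1 with BCS. Its BCS libraries were below all others, at -0.20 ± 0.07 against Ctr1-null (adjusted p = 0.259) and -0.15 ± 0.07 against wild type (adjusted p = 0.177). Iars2 overlaps Rab3gap2 on the opposite strand over 2034 bases.

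Yars2 (tyrosine) had 34.1, 33.004 and 34.3 CPM in wild type and 27.4, 31.7 and 25.0 with BCS, a log2 difference of -0.27 ± 0.11 (SE, edgeR adjusted p = 0.124). Hars2 had 35.8, 39.6 and 35.4 CPM with BCS, above all Ctr1-null libraries, at 0.20 ± 0.07 (adjusted p = 0.265). The 3 members with under 10 CPM in wild type, Ears2, Pars2 and Nars2, were within 0.30 of 0 in all 3 comparisons and none was called.

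Other genes of transfer RNA charging and use were taken from lists chosen together with the members. None was called in Ctr1-null against wild type, and none but the 3 ATF4 genes with BCS against Ctr1-null. Below 0 in Ctr1-null against wild type were 6 of 7 genes of cytosolic elongation (median log2 fold change -0.24), all but the kinase gene Eef2k. So were 24 of 31 ATF4 genes (-0.23), 13 of 16 genes of mitochondrial tRNA processing and modification (-0.07) and 10 of 14 mitochondrial translation factors (-0.07). Of 8 genes of tRNA editing, repair and peptidyl-tRNA hydrolysis 2 were below 0 (median 0.06). In that comparison the smallest p in each list went to Aimp1 (-0.28), Mars (-0.30), Aarsd1 (0.20), Gatb (-0.21), Nsun3 (0.33), Guf1 (0.19), Eif5a (-0.31), Vldlr (0.77) and Ddit4 (-0.51), where values are log2 fold changes. With BCS against Ctr1-null it went to Aimp2 (-0.36), Mars (0.10), Ptrh2 (-0.38), Gatb (0.23), Nsun2 (-0.28), Mtif3 (0.20), Eif5a (-0.38) and Ddit4 (0.39), beside Atf5.

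With BCS against wild type, where 7.28% of all genes were called lower and 8.56% higher, single calls in lists this short are near the background. Of 8 genes of tRNA editing, repair and peptidyl-tRNA hydrolysis 1 fell, Ptrh2, a peptidyl-tRNA hydrolase (-0.30 ± 0.07, edgeR adjusted p = 0.0224). Of 7 genes of cytosolic elongation 1 fell, Eif5a (-0.70 ± 0.15, edgeR adjusted p = 0.0188), which encodes the factor that carries hypusine. Of 14 mitochondrial translation factors 2 rose, Guf1 (0.27 ± 0.08, adjusted p = 0.0422) and Mterf4 (0.46 ± 0.12, adjusted p = 0.0329). Of 16 tested genes of mitochondrial tRNA processing and modification 1 rose, the methyltransferase gene Nsun3 (0.46 ± 0.11, adjusted p = 0.0211), and of 4 for amidation and formylation none did. Among 31 ATF4 genes 8 rose, beside the 8.56% of all genes, led by Slc7a11, the cystine importer, at 1.75 ± 0.32 (adjusted p = 0.0109), and 1 fell, the amino acid importer Slc38a2 at -0.51 ± 0.10 (adjusted p = 0.0115). None of 11 tested genes of MYC and mTORC1 regulation was called (smallest edgeR adjusted p = 0.0923), with 5 above and 6 below 0. Myc had -0.54 ± 0.21 (adjusted p = 0.112). At an unadjusted p under 0.05, 2 genes of this list were higher and 1 lower.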

How the data were processed

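Per the labels, RNA was sequenced from 9 libraries of cultured cells (TruSeq kit). The authors deposited estimated counts per gene and a scaled signal table, in which each count is divided by a factor per gene and sample; the latter served only for an alternative. FastQC, STAR, Salmon, DESeq2 and the build GRCm38 are listed in the submitters' processing notes, without versions or roles. Gene names came from the reference tables (GENCODE M21). Counts were filtered (filterByExpr, minimum count 10, minimum total 15), TMM-scaled and fitted with edgeR 4.0.16 under R 4.3.3 (quasi-likelihood test, 3 groups, 6 residual degrees of freedom, 2-sided), with Benjamini-Hochberg adjustment over 18408 genes, called under 0.05. The fit was tested on simulated data. A count of 0 allows 3 counts, 0.0546 to 0.0811 CPM, which covers counting error only.

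The members and lists were chosen with earlier results of these data known. By rule, full values are given for members called in any comparison, the 5 cytosolic and the 5 mitochondrial members with the smallest p, and Gars and Kars; from each related list, called genes (up to 3 each way) or the 2 with the smallest p. Sars, Yars, Lars2, other members, Atf4, Trib3 and Asns, and 1 in place of 2 genes for some lists, were chosen after values were seen. Shared sequence was sought with blastn at 90% identity. Alternatives were other scalings, filters, DESeq2 1.42.0, limma-voom (limma 3.58.1), the compared groups alone, a replicate block and leaving out each library. Figures used matplotlib 3.10.9.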

Additional observations from a re-analysis of the deposited data

How the results depend on the processing

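Under the alternatives, Ctr1-null against wild type gave 0 to 10 cytosolic and 0 to 1 mitochondrial members called when 1 library was left out, with calls only without wild type replicate 1, and 2 cytosolic with DESeq2. BCS against Ctr1-null gave 0 to 1 cytosolic call on leaving out a library (1 without wild type replicate 1) and 1 with DESeq2. BCS against wild type gave 0 to 9 cytosolic calls (9 without wild type replicate 1, 5 without Ctr1-null replicate 1, 1 without Ctr1-null replicate 2 or 3, and 0 without wild type replicate 2 or 3 or BCS replicate 1 or 3) and 0 to 1 mitochondrial. It gave 5 cytosolic calls with DESeq2, 1 with the authors' factors and 0 with the replicate block, and 0 mitochondrial calls with the authors' factors, no filter, the replicate block or only the compared groups. The mitochondrial median against wild type was 0.094 with library size only, -0.036 with the authors' factors and -0.031 to 0.014 on leaving out a library, and the cytosolic minus mitochondrial median was -0.29 to -0.092 then, lowest without wild type replicate 1. Library size alone moved the median of all genes in that comparison to 0.11 and the calls to 2064 higher and 784 lower, from 1576 and 1340. Library size alone also gave 1 cytosolic call lower (Vars) and 1 higher (Cars), and 1 mitochondrial call, Fars2, higher. Among members chosen by the rule, signs changed for Gars against wild type (0.090 with library size only, 0.0070 with the 1 CPM filter, 0.0027 with limma-voom, -0.17 to 0.075 on leaving out a library), for Hars2 (-0.036 with the authors' factors, -0.0092 to 0.078 on leaving out a library), for Aars (-0.075 to 0.13, below 0 only without wild type replicate 1) and for Farsa against Ctr1-null (-0.073 to 0.076 on leaving out a library). Other members also changed sign, among them Sars and Yars with BCS against wild type (-0.20 to 0.068 and -0.087 to 0.13 over all alternatives), Tars and Iars against Ctr1-null (-0.052 to 0.20 and -0.00039 to 0.28) and Wars in Ctr1-null against wild type (-0.16 to 0.055). The causes were not tested. Deviations of same-numbered libraries from their group means had correlations from -0.32 to 0.28. These cannot show whether such libraries shared a culture or day, and the labels do not say, so whether the replicate block applies is not known.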
